A study of Homo sapiens with 4 samples.

Results

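The NF-kB pathway was followed through 10 of the 61228 genes in the count tables, chosen by name: the 5 subunits of the transcription factor NF-kB (RELA, REL, RELB, NFKB1 and NFKB2) and 5 genes that NF-kB itself switches on and that act back on the pathway (NFKBIA, NFKBIE, NFKBIZ, TNFAIP3 and BIRC3). They were set against each other in the lung cancer line H1792, an established human line whose genotype is labelled WT, after 96 h with the solvent DMSO (2 libraries) or with ACBI1 (2 libraries). ACBI1 is a PROTAC, a molecule that brings a target protein to the VHL ubiquitin ligase for degradation, and its targets are SMARCA2, SMARCA4 and PBRM1, subunits of the SWI/SNF chromatin remodelling complexes. The dose is written in the labels as 1 mM, and this unit could not be checked from the counts. Both groups share the cell line and the culture time, and the labels do not say whether the replicates were separate cultures, so that p-values measure the spread between these libraries, which may be technical.

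NF-kB dimers are held in the cytoplasm by inhibitors of the IkB family. In the canonical pathway, signals such as TNF, IL-1 or bacterial products activate the IKK kinases, IkB is degraded, and dimers such as RELA with the p50 product of NFKB1 enter the nucleus, where they induce inflammatory genes together with their own inhibitors, which ends the response. In the non-canonical pathway, the kinase NIK (gene MAP3K14) drives processing of the NFKB2 precursor, and RELB with p52 enters the nucleus; TRAF3, TRAF2 and the cIAP ubiquitin ligases (genes BIRC2 and BIRC3) keep NIK low in resting cells.

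Counts assigned to genes summed to between 64281850 and 86010100 per library, and 19159 genes were tested. CPM below are counts per 1000000 with TMM-scaled library sizes, and SDs are over n = 2 libraries. The degrader acts on proteins, so the transcripts of its targets do not check the labels: SMARCA4 had a log2 change of 0.70, SMARCA2 one of -0.40 and PBRM1 one of 0.10, with edgeR adjusted p of 0.0583, 0.163 and 0.734. Of 7 epithelial markers, KRT7, KRT8 and KRT18 were at 58.7 CPM or more in each library, while NKX2-1, a lung lineage factor, had 0 counts in all 4 and CDH1 was at 0.222 CPM or less. The summed level of the 7 was 982 and 1035 CPM with DMSO and 323 and 202 CPM with ACBI1, most of it KRT7 (678 and 680 against 179 and 60.3 CPM), while EPCAM was at 5.38 and 2.78 against 15.6 and 4.835 CPM (edgeR adjusted p 0.179). KRT7, KRT8, KRT18 and KRT19 had edgeR adjusted p under 0.05 (0.0229, 0.00753, 0.0136 and 0.0171) and were lower with ACBI1, where 10.6% of all tested genes were called lower. All 6 haematopoietic markers were at 1 CPM or less, with CD3E at 0 and a summed level of 0.430 to 1.06 CPM. The 4 endothelial markers summed to 12.8 and 49.0 CPM with DMSO, nearly all of it PECAM1, and to 0.123 and 0.107 CPM with ACBI1, and the 4 fibroblast markers to 31.7 and 96.9 against 9.38 and 13.2 CPM. The part of these shifts in the results below was not tested.

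The sequence before the start of the genes was compared, with the caution that the feedback genes are known NF-kB targets. Subunit genes can be targets too, so that this is not a contrast of targets with other genes. Both points bear on finding NF-kB sites there. RefSeq promoter windows (GRCh38.p14) were available for 8 of the 10 members, with none for RELB and NFKBIE, and the 250 bases before each start were searched on both strands for the kB consensus, the general NF-kB site of 10 bases. A match was found for 7 of the 8: REL, NFKB1, NFKB2, NFKBIA, NFKBIZ, TNFAIP3 and BIRC3. Neither of the 2 windows of RELA held one. Over the 27305 genes with a window, 11.8% held a match. The window of NFKBIA is shown whole, that of BIRC3 up to the first base that GENCODE release 29 places in an exon, and for the others 1 stretch around a match, because members that moved in opposite directions both hold a match. Matches are in capitals, which in REL and NFKB2 cover 2 matches that overlap, and the lower-case end of the TNFAIP3 stretch runs into its second match, which is not marked; the sequences run 5′ to 3′ on the strand of the gene. A match is a description of letters, not of binding. The first base of the match lies 81 bases before the RefSeq start in NFKBIA, 199 and 135 in BIRC3, and 67 and 55 in TNFAIP3. Starts differ between RefSeq and GENCODE, so that some of the shorter stretches reach into exons of the latter. The marked matches of TNFAIP3, REL and NFKB2 themselves lie after the GENCODE start of the gene.
NFKBIA (chr14:35404750-35404999, minus strand): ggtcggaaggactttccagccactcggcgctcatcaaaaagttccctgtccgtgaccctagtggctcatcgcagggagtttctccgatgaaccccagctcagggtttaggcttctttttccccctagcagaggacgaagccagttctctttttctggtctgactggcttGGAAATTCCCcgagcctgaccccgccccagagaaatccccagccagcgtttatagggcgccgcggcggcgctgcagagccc
BIRC3 (chr11:102317234-102317449, plus strand): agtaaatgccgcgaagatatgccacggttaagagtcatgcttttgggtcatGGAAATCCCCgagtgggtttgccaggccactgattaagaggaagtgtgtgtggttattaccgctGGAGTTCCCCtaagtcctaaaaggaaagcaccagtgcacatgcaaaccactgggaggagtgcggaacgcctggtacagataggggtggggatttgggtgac
TNFAIP3 (chr6:137867182-137867211, plus strand): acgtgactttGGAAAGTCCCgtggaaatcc
NFKBIZ (chr3:101827757-101827786, plus strand): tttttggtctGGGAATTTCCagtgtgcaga
NFKB1 (chr4:102501300-102501329, plus strand): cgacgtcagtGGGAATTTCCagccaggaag
NFKB2 (chr10:102394462-102394490, plus strand): aaacgtcatGGGAATTCCCCcctccgggg
REL (chr2:60881518-60881546, plus strand): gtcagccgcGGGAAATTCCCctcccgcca

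The feedback genes moved apart from one another. With ACBI1, TNFAIP3, NFKBIZ and NFKBIA fell, with log2 changes of -2.90, -2.19 and -0.90, while BIRC3 rose, with a log2 change of 2.16. NFKBIE was lower in both ACBI1 libraries without passing the test. So 3 of the 5 feedback genes were called lower and 1 higher by edgeR's quasi-likelihood test (Benjamini-Hochberg adjusted p under 0.05 over all 19159 genes), where 10.6% of all tested genes were called lower and 6.75% higher. In such bulk libraries, fewer cells that carry a transcript and less of it per cell cannot be told apart.

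TNFAIP3 (chr6:137867188-137883312 in GRCh38, GENCODE release 29) encodes A20, an enzyme that edits ubiquitin chains on signalling proteins and so shuts the canonical pathway off. It was at 150.5 and 208.9 CPM in the DMSO libraries and at 24.6 and 23.6 CPM in the ACBI1 libraries. Both ACBI1 libraries lay far below both DMSO libraries, and the ACBI1 pair nearly coincided. The means were 180 ± 41.3 and 24.1 ± 0.656 CPM, a 7.46-fold lower level (log2 change -2.90, SE 0.22, adjusted p 0.00231). In the order of fitted log2 changes, 619 of the 19159 tested genes had a larger fall.

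NFKBIZ (chr3:101827991-101861022) encodes IkB-zeta, a nuclear member of the IkB family that works with NF-kB at secondary response genes such as IL6, so that it is not purely an inhibitor. Its CPM were 474 and 400 with DMSO and 109 and 83.0 with ACBI1. The groups were well apart, and the fall was 4.55-fold (log2 change -2.19, SE 0.21, adjusted p 0.00385). NFKBIA (chr14:35401511-35404749) encodes IkB-alpha, the inhibitor that NF-kB induces within minutes and that pulls dimers back out of the nucleus. It was at 265 and 289 CPM with DMSO and at 160.5 and 135.5 CPM with ACBI1. The groups did not overlap and the replicates of each lay close together, with a log2 change of -0.90 (SE 0.17, adjusted p 0.0221). The fall of NFKBIA was not called when either ACBI1 library was left out (log2 change -1.02 with adjusted p 0.0702 without ACBI1 replicate 1, and -0.80 with adjusted p 0.119 without ACBI1 replicate 2), so that the number of feedback genes called lower was 2 in those fits. Calls for TNFAIP3, NFKBIZ and BIRC3 were made whichever of the 4 libraries was left out.

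NFKBIE (chr6:44258166-44265788) encodes IkB-epsilon, an inhibitor that is induced more slowly. Its CPM were 15.03 and 24.3 with DMSO and 9.84 and 12.7 with ACBI1. The groups did not overlap but the lower DMSO library was near the higher ACBI1 library, and the log2 change of -0.80 (95% interval -1.51 to -0.09) had an adjusted p of 0.112. Without DMSO replicate 1 the log2 change of NFKBIE was -1.10 with an adjusted p of 0.0138, which brought the feedback genes called lower to 4, and without DMSO replicate 2 it was -0.42. With all 4 libraries NFKBIE was also called when every gene with a count was tested (adjusted p 0.0157). That setting lowered the adjusted p of other members too, that of NFKBIZ from 0.00385 to 6.91e-22. DESeq2 (adjusted p 0.0576) and limma-voom (0.126) did not call NFKBIE.

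BIRC3 went the other way. The gene (chr11:102317450-102339403) encodes cIAP2, a ubiquitin ligase that is recruited to TNF receptors, where it helps canonical signalling, and that marks NIK for degradation in resting cells. BIRC3 was at 136 and 109 CPM with DMSO and at 746 and 356 CPM with ACBI1. Both ACBI1 libraries were far above both DMSO libraries, but they differed from each other by more than the DMSO pair did. The means were 123 ± 19.0 and 551 ± 276 CPM, a 4.48-fold rise (log2 change 2.16, SE 0.37, adjusted p 0.0154), and 264 of the 19159 tested genes had a larger fitted rise. Its size rested on the library used: leaving out ACBI1 replicate 1 gave a log2 change of 1.54 (adjusted p 0.0179), and leaving out ACBI1 replicate 2 gave 2.59 (adjusted p 0.00306).

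**Figure D1:**
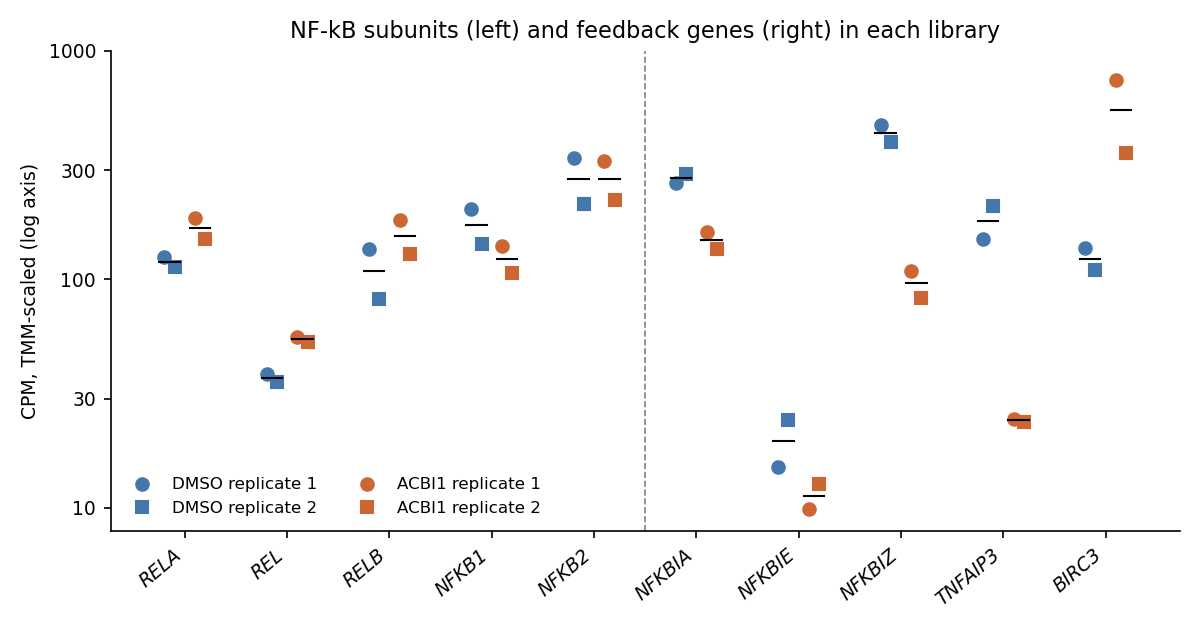
Each point is the level of a member in 1 library, in CPM with TMM-scaled library sizes on a log axis, with DMSO in blue, ACBI1 in orange, circles for replicate 1, squares for replicate 2 and a bar at the mean of each pair. TNFAIP3 drops from 150.5 and 208.9 to 24.6 and 23.6 CPM and BIRC3 climbs from 136 and 109 to 746 and 356 CPM, while the subunits on the left lie between 35.4 and 338 CPM.

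None of the 5 subunits passed edgeR's test, where 17.4% of all tested genes did. At an unadjusted p under 0.05 there were 2 (RELA and REL), where 33.9% of all tested genes had one. DESeq2 called 1 (REL) and 23.5% of all tested genes, and limma-voom called 0 and 17.3%. Their log2 changes ran from -0.49 to 0.56. REL and RELA were higher in both ACBI1 libraries, NFKB1 was lower in both, and the groups overlapped for RELB and NFKB2. With the replicate number as a block, 3 subunits were called higher and 1 lower, where 7909 of the 19159 tested genes were called. The labels do not give that pairing.

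RELA (chr11:65653596-65663094) encodes p65, the main activating subunit of the canonical pathway, and was at 125 and 113 CPM with DMSO and at 186 and 150 CPM with ACBI1. Its groups did not overlap, and the log2 change was 0.50 (95% interval 0.06 to 0.93, adjusted p 0.111). REL (chr2:60881521-60931610) encodes c-Rel, an activating subunit best known from lymphocytes, and was at 38.6 and 35.4 CPM against 56.1 and 52.9 CPM. Here the replicates of each group were close, and the log2 change was 0.56 (95% interval 0.19 to 0.93) with an adjusted p of 0.0539, just short of the threshold. Under 5 alternatives REL was called higher, with adjusted p of 0.0319 to 0.0453 in the 4 of them without a replicate block. Exons of another gene on the same strand (AC010733.2) overlap 43.3% of the exonic length of REL in GENCODE release 29, so that its counts carry that uncertainty.

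RELB (chr19:45001430-45038198) encodes the activating subunit of the non-canonical pathway and was at 136 and 81.6 CPM with DMSO and at 181 and 129 CPM with ACBI1. The higher DMSO library exceeded the lower ACBI1 library, and the log2 change of 0.51 (95% interval -0.20 to 1.23) had an adjusted p of 0.274. Without DMSO replicate 1, RELB had a log2 change of 0.93 and was called higher (adjusted p 0.0245), and without DMSO replicate 2 it had one of 0.18. NFKB1 (chr4:102501329-102617302), whose precursor p105 gives p50 and also acts as an inhibitor, was at 204 and 142 CPM with DMSO and at 140 and 107 CPM with ACBI1. The lower DMSO and the higher ACBI1 library of NFKB1 were almost level, and the log2 change was -0.49 (95% interval -1.07 to 0.09, adjusted p 0.208). It was -0.20 without DMSO replicate 1 and -0.73 without DMSO replicate 2.

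NFKB2 (chr10:102394110-102402529), whose precursor p100 gives p52, was at 338 and 214 CPM with DMSO and at 329 and 222 CPM with ACBI1. The replicates within a group lay further apart than the group means, both of which were 276 CPM. The 95% interval of its log2 change ran from -0.71 to 0.71 (adjusted p 1), which leaves room for moderate changes either way, and the sign differed between settings. All 5 subunits were higher in replicate 1 than in replicate 2 in both groups. Deviations from the group means correlated between same-numbered libraries over all tested genes too (r = 0.518), so that this need not be particular to the subunits. With 2 libraries against 2, an exact permutation test of a single value cannot give a p below 0.333, so none was used.

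**Figure D2:**
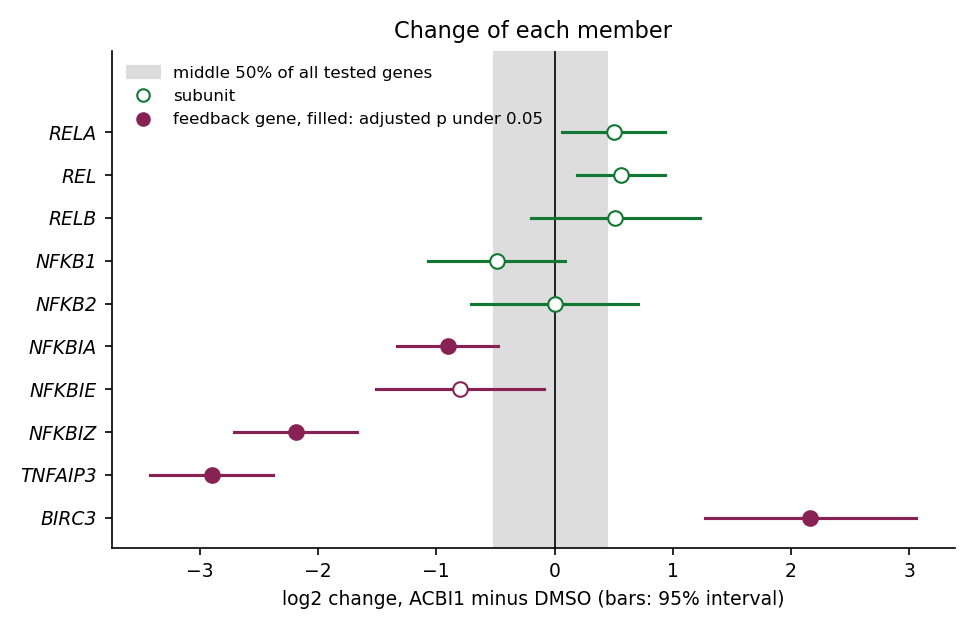
Points are log2 changes (ACBI1 minus DMSO) with 95% intervals from the edgeR fit, subunits in green and feedback genes in purple, filled where the adjusted p was under 0.05, and the grey band spans the middle 50% of all tested genes (-0.51 to 0.44). The 4 filled points are NFKBIA, NFKBIZ and TNFAIP3 on the left and BIRC3 at 2.16 on the right.

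Set side by side, the subunits had a median log2 change of 0.50 (range -0.49 to 0.56) and the feedback genes one of -0.90 (range -2.90 to 2.16), where the median over all tested genes was 0.01. The median of the subunits was 0.18 without DMSO replicate 2. In 3 of 5 subunits and 5 of 5 feedback genes the groups did not overlap, as in 63.2% of all tested genes (31.1% with ACBI1 higher and 32.2% with ACBI1 lower). No test was made of the difference between the classes, since genes are not replicates and the members were chosen by name with earlier results known. The fitted intervals of TNFAIP3 (-3.42 to -2.38), NFKBIZ (-2.71 to -1.67) and BIRC3 (1.27 to 3.06) lay outside that of every subunit. That of BIRC3 began close to the end of that of RELB (-0.20 to 1.23). The intervals of NFKBIA (-1.33 to -0.48) and NFKBIE (-1.51 to -0.09) overlapped those of NFKB1 (-1.07 to 0.09) and NFKB2 (-0.71 to 0.71).

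Levels of different genes were compared as CPM per kb of exon (GENCODE release 29). The length joins the exons of all transcripts of a gene, whether or not they are used in these cells, so that levels and order depend on it. Summed over the class, subunit transcripts were at 178.5 and 121 CPM per kb with DMSO and at 194 and 141 CPM per kb with ACBI1. Feedback transcripts were at 246 and 255 CPM per kb with DMSO and at 194 and 128 CPM per kb with ACBI1. The ratio of the feedback to the subunit sum was thus 1.38 and 2.11 with DMSO and 1.00 and 0.911 with ACBI1. Both ACBI1 libraries were below both DMSO libraries. BIRC3 made up 7.38% and 5.715% of the feedback sum with DMSO and 51.15% and 36.9% with ACBI1, and without it the ratio was 1.275 and 1.99 against 0.489 and 0.574.

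**Figure D3:**
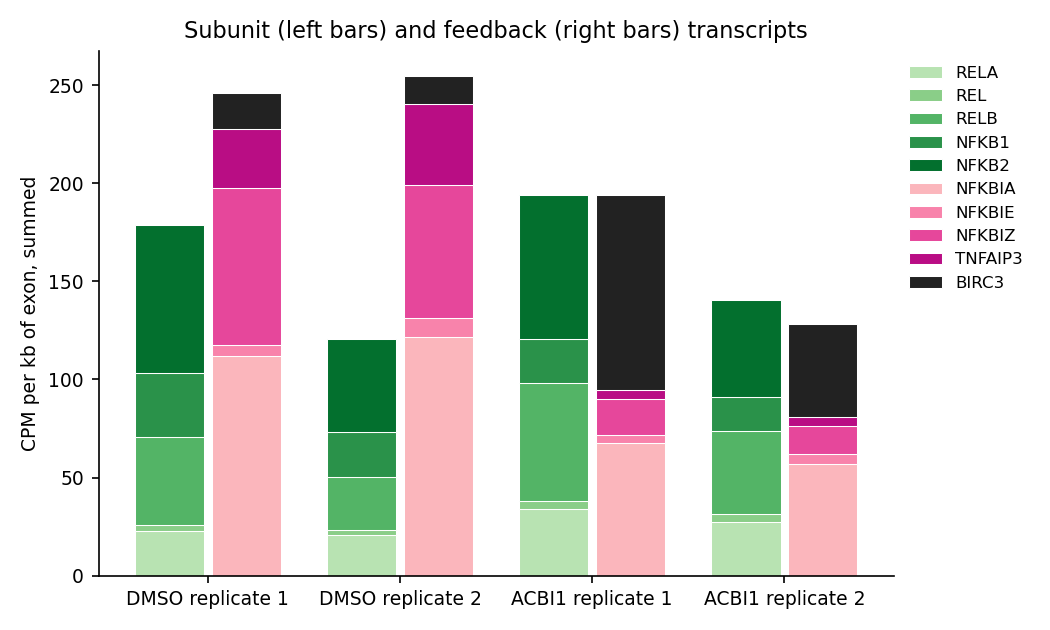
Stacked bars give the CPM per kb of exon of the 5 subunits (left bar, green) and the 5 feedback genes (right bar, pink, BIRC3 in black) in each library. The feedback bar exceeds the subunit bar in both DMSO libraries (246 against 178.5 and 255 against 121 CPM per kb) whereas in the ACBI1 libraries they are nearly level in replicate 1 (ratio 1.00) and the feedback bar is lower in replicate 2 (0.911), and BIRC3 holds 51.15% and 36.9% of it.

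The order of the members also changed on this per-length scale. With DMSO, NFKBIA came first (112 and 122 CPM per kb), clear of NFKBIZ (80.3 and 67.7), whose range overlapped that of NFKB2 (75.3 and 47.75). RELB, TNFAIP3, NFKB1 and RELA followed, apart from NFKB2 but each overlapping the next, then BIRC3 (18.1 and 14.6), NFKBIE (5.82 and 9.425) and REL (2.93 and 2.69), each apart from the one before. With ACBI1, BIRC3 came first (99.2 and 47.3 CPM per kb), but its range overlapped that of NFKBIA (67.65 and 57.1), which overlapped NFKB2 (73.5 and 49.6), and NFKB2 overlapped RELB (59.75 and 42.5). RELA and then NFKB1 followed, each apart from the one before. NFKBIZ, at 18.4 and 14.1, overlapped NFKB1 and was apart from the last 3, TNFAIP3 at 4.86 and 4.68, NFKBIE at 3.81 and 4.93, and REL at 4.26 and 4.02. TNFAIP3, NFKBIE and REL were not clearly ordered in that group, since the neighbours' ranges overlapped. The low place of REL in both groups rests on a length of 13170 bases, 43.3% of it overlapped by another gene. Its place could differ with another length.

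Other genes of the pathway were taken from 6 lists by role, 68 genes in all, each of them tested. The lists were drawn up with earlier results of these data known, so that the shares called may reflect that choice. Of these, 5 (7.35%) were called higher and 30 (44.1%) lower, where 6.75% and 10.6% of all tested genes were. Among the other IkB proteins, NFKBIB (IkB-beta) was called higher with a log2 change of 0.66 (adjusted p 0.0330), BCL3, a nuclear IkB protein that pairs with p50 or p52, had one of -0.99 and was called lower (adjusted p 0.0477), and NFKBID was not called. NFKBIB lost its call when any 1 library was left out (adjusted p 0.0568 to 0.172). BCL3 lost its call without DMSO replicate 2 (log2 change -0.63), ACBI1 replicate 1 (-0.82) or ACBI1 replicate 2 (-1.17), with adjusted p of 0.106, 0.192 and 0.0750. On all 4 libraries it was also not called under upper-quartile factors (adjusted p 0.0515), library size only (0.0574) or limma-voom (0.0516).

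Of the 8 genes for the IKK complex and the kinases that act on it, 1 (12.5%) was called, where 17.4% of all tested genes were. So short a list cannot be set apart from that share. The gene called was MAP3K14, the gene for NIK. It rose from 29.6 and 28.7 CPM with DMSO to 124 and 165 CPM with ACBI1, with both ACBI1 libraries far above both DMSO libraries (log2 change 2.31, SE 0.20, adjusted p 0.00265), and over the fits with 1 library left out the log2 change ran from 2.08 to 2.51. An antisense gene overlaps 12.3% of its exonic length. CHUK, IKBKB and IKBKG, the subunits of the IKK complex, had log2 changes of 0.24, -0.40 and -0.25 (adjusted p 0.357 to 0.519). The median of the list was -0.14.

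Among 10 adaptors and ubiquitin ligases, 1 (10%) was called, where 17.4% of all tested genes were. This was TRAF3, the adaptor that holds NIK with its ligases, with 129 and 104 CPM against 192.5 and 206.5 CPM (log2 change 0.78, adjusted p 0.0346). TRAF3 kept its direction but lost the call without DMSO replicate 2 (log2 change 0.63, adjusted p 0.112), ACBI1 replicate 1 (0.84, adjusted p 0.108) or ACBI1 replicate 2 (0.72, adjusted p 0.140). BIRC2, the paralogue and neighbour of BIRC3, was at 108 and 98.4 CPM with DMSO and at 193 and 133 CPM with ACBI1. Its log2 change of 0.66 was not called (adjusted p 0.0889). TRAF2 had a log2 change of 0.13 (adjusted p 0.688).

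Of 13 other negative regulators, 3 (23.1%) were called lower and 1 (7.69%) higher, where 10.6% and 6.75% of all tested genes were, and the median was -0.27. ZC3H12A, the gene for regnase-1, a nuclease that cuts inflammatory mRNAs, fell from 175 and 258 to 18.5 and 31.1 CPM (log2 change -3.13, adjusted p 0.00459). The log2 change of CYLD, a deubiquitinase of the pathway, was -1.31 (adjusted p 0.0103), and that of TNIP1, which encodes the A20 partner ABIN1, was -1.24 (adjusted p 0.00846). TNIP2 had a log2 change of 0.69 (adjusted p 0.0382), a call that was lost without DMSO replicate 2 (0.55), ACBI1 replicate 1 (0.69) or ACBI1 replicate 2 (0.69), with adjusted p of 0.153, 0.154 and 0.136.

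The genes for ligands and receptors that feed the pathway and for its other targets showed the most falls. Of 13 ligand and receptor genes 11 were called lower and 0 higher, with a median of -2.14, where 10.6% of tested genes were called lower. By size these were led by IL1B, IL1A, LTB and TNF, with log2 changes of -13.57, -7.73, -5.83 and -3.95 (adjusted p 0.00126, 0.00141, 0.00193 and 0.00361); the IL1B value rests on 6 ACBI1 counts and ran from -14.80 to -12.96 with 1 library left out. TNF itself was rare, at 3.77 and 3.32 CPM with DMSO and at 0.212 and 0.244 CPM with ACBI1. Of 21 other target genes 15 were called lower and 1 higher, with a median of -3.19, also with VCAM1 at its bound. VCAM1, an adhesion molecule, had 600 counts with DMSO and 0 with ACBI1, which makes it at least 202-fold lower (against a floor of 3 counts over the group). IL6 had a log2 change of -6.80, the chemokine genes CXCL8 and CCL20 ones of -5.47 and -5.09, each with an adjusted p of 0.00231 or less. That of IL6 was -6.04 without DMSO replicate 1 and -7.29 without DMSO replicate 2. Genes on the other strand overlap 20.7% of the exonic length of IL6. The gene called higher, singled out after its values were seen, was CD83, with 5.86 and 7.01 CPM against 17 and 13.15 CPM (log2 change 1.23, adjusted p 0.0242).

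**Figure D4:**
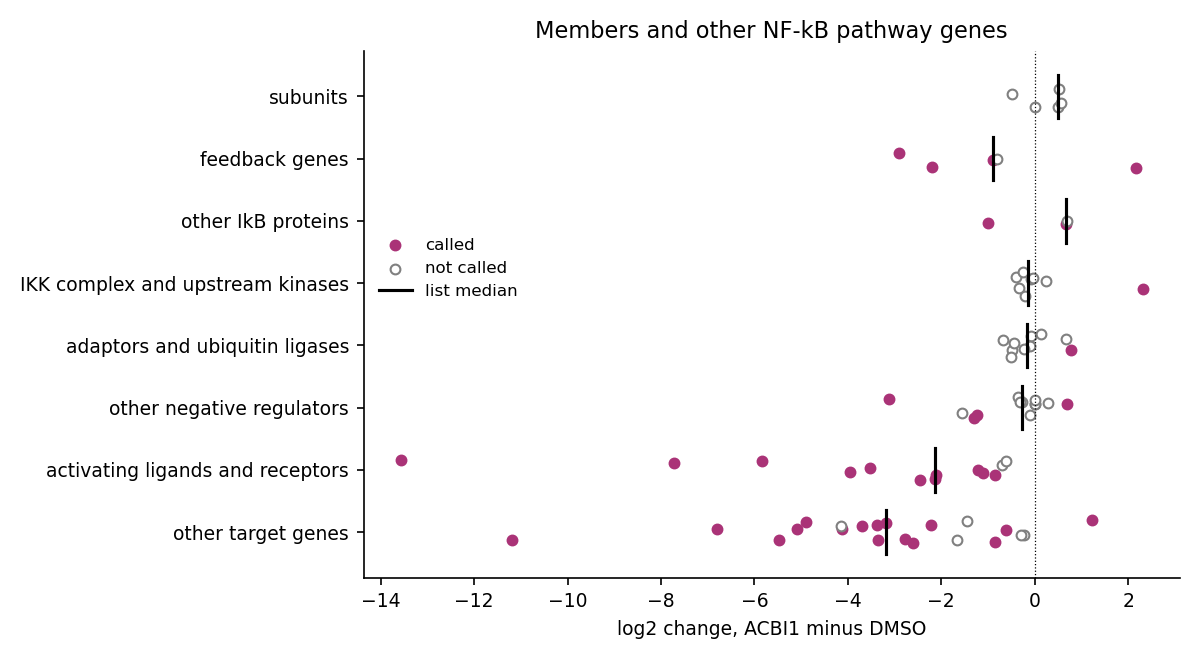
Each point is the log2 change (ACBI1 minus DMSO) of 1 gene, filled where the edgeR adjusted p was under 0.05, with a black bar at the median of each list. BIRC3 (2.16) and MAP3K14 (2.31) stand on the right of their lists, and the medians of the ligand and receptor genes (-2.14) and the other targets (-3.19) lie far to the left of those of the kinases (-0.14) and adaptors (-0.17).

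Genes outside the members with the most similar pattern were sought for RELA and NFKBIA, as the smallest Euclidean distance between log2 CPM (pseudocount 0.5) centred over the 4 libraries, among the 11150 genes whose mean reached 5 CPM. For RELA these were GLE1, METTL5 and B3GALNT1, at distances of 0.0172, 0.0456 and 0.0471, and 3546 genes lay within 0.5. For NFKBIA they were EVI5L, ABCA5 and SLC35B1, at 0.0139, 0.0410 and 0.0457, with 1042 genes within 0.5. With 4 libraries of 2 groups such likeness is common.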

How the data were processed

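The deposited files hold counts of RNA-seq reads per gene symbol, 1 library each, not normalized by the authors. The submitters' processing notes name TopHat2 2.1.1, HTSeq 0.11.0 and hg38. The annotation and strand setting are not given in the sources used here, so overlapping and antisense genes can share or lose reads. Per the labels' protocols, total RNA came from silica columns and libraries from a kit sold for DNA. Group and replicate came from the titles. The 5 lines for reads given to no gene were kept out; reads in genes were 84.64% to 86.11% of those listed.

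Genes were filtered with filterByExpr (minimum count 10, total 15), scaled by TMM and tested in R 4.3.3 with edgeR 4.0.16 (quasi-likelihood, two-sided, Benjamini-Hochberg over 19159 genes, threshold 0.05). SE is the change over the square root of F. Alternatives, with DESeq2 1.42.0 and limma 3.58.1 among them, are in the closing section. Scripts were tested on simulated data of the same depth and group sizes, with 200 changed genes and a common dispersion for every gene. In the simulation edgeR recovered 18% of genes with a true absolute log2 change of 1 and 97% of those with 2. These shares need not hold in the real data, where 3331 genes were called and the dispersion was fitted gene by gene. A gene that was not called, such as a subunit, may still have changed. The members, the lists, the motifs and the rule for names (all members, up to 4 called genes with the largest change in each list, and the 3 genes nearest to RELA and to NFKBIA) were chosen with earlier results of these data known. Replicates differed by more than sampling noise (chi-square per degree of freedom 161 for DMSO and 105 for ACBI1). Gene lengths and overlaps came from GENCODE release 29, which may differ from the annotation counted.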

Additional observations from a re-analysis of the deposited data

How the results depend on the processing

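The number of genes called (3331 of 19159 tested, with 1294 higher and 2037 lower) became 5518 (2202 and 3316) of 32871 tested with every gene that had a count. With a minimum log2 change of 1, 794 genes were called higher. The number called was 783 (172 and 611) at a threshold of 0.01. With 1 library left out, where the lone library of a group is assumed to vary like the other group, it ran from 1379 to 4292 (higher from 415 to 1651, lower from 964 to 2641). Subunits called higher were 1 instead of 0 under upper-quartile factors, library size only, a mean of at least 5 CPM and DESeq2, and 0 to 1 with 1 library left out. Over all 19159 tested genes, those called higher were 1507 under upper-quartile factors, 1755 under library size only and 1907 with DESeq2, against 1294. A mean of at least 5 CPM left 11163 genes tested, with 1113 called higher. The median of the subunits ran from 0.18 to 0.59 with 1 library left out, and that of the feedback genes from -1.10 to -0.84. At a threshold of 0.01 no feedback gene was called higher, 0 instead of 1 (BIRC3, adjusted p 0.0154). The log2 change of NFKB2, about 0, was 0.04 under upper-quartile factors, 0.09 under library size only, 0.00 with DESeq2 and with DESeq2 size factors, 0.01 with limma-voom, and from -0.30 to 0.37 with 1 library left out. TNFAIP3 and NFKBIZ passed under all 14 alternatives. The cause of these shifts was not tested.

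Nothing in the labels ties same-numbered libraries to a common batch, although deviations from the group means correlated between same-numbered libraries (r = 0.518 over 19159 genes, and 0.731 over the 10 members). With the replicate number as a block, 7909 of the 19159 tested genes were called (3708 higher, 4201 lower), so that calls were common in this fit. In it 3 subunits were higher (RELA, REL and RELB) and 1 lower (NFKB1). NFKBIE was called lower (adjusted p 0.00246), and NFKB2 had a log2 change of 0.01.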

Other observations

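Of the protein-coding genes within 250 kb of BIRC3 on chromosome 11, 4 were tested. By edgeR 0 of them were called, where 17.4% of all tested genes were, so that so few genes do not set the locus apart. They were BIRC2 (log2 change 0.66, adjusted p 0.0889), TMEM123 (0.08, adjusted p 0.781), YAP1 (0.36, adjusted p 0.179) and CFAP300 (0.06, adjusted p 0.904). At an unadjusted p under 0.05 there was 1, where 33.9% of all tested genes had one. DESeq2 called 1 and limma-voom called 0, against 23.5% and 17.3% of all tested genes. Within 250 kb of RELA, 2 of 19 tested genes were called higher and 1 lower by edgeR. Around RELB these were 2 and 4 of 15, and around NFKB2 3 and 1 of 13. None were called around REL (4 tested), NFKB1 (3), NFKBIA (2), NFKBIE (7), NFKBIZ (5) or TNFAIP3 (1). Of all tested genes 6.75% were called higher and 10.6% lower, and such small numbers do not set these loci apart.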
